A study of Homo sapiens with 4 samples.

Results

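Oxidative phosphorylation is the process by which mitochondria pass electrons from NADH and succinate down a chain of protein complexes to oxygen and use the proton gradient so built to make ATP. Complex I (NADH dehydrogenase, NDUF genes), complex II (succinate dehydrogenase, SDH genes), complex III (the cytochrome bc1 complex, UQCR genes) and complex IV (cytochrome c oxidase, COX genes) form the chain, and complex V (ATP synthase, ATP5 genes) makes the ATP. Core subunits carry the redox centres and pump protons, accessory subunits surround and stabilise them, and assembly factors such as the NDUFAF proteins help to build a complex without remaining in it. Some leukemia cells, including those of acute myeloid leukemia, depend on this pathway.

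The genes described here are those whose symbol starts with NDUF, UQCR, ATP5 or COX followed by a digit from 4 to 8, or is SDHA, SDHB, SDHC or SDHD, and that have a probe set annotated to that symbol alone. The rule gave 89 genes of the 18377 measured in that way, with 1 probe set kept per gene, the one of highest mean log2 intensity over the 4 arrays. Of the 89, 86 encode subunits or assembly factors and fall into 8 classes: 6 core and 28 accessory subunits of complex I, 7 NDUFAF assembly factors, 3 subunits of complex II, 7 of complex III, 17 of complex IV, 4 of the catalytic F1 head of complex V and 14 of its membrane part, stalks and inhibitor. The other 3 are the pseudogenes ATP5F1EP2 and UQCRBP1 and the transcript NDUFV1-DT, which starts beside NDUFV1. NDUFAF8, SDHB, UQCRFS1, NDUFA4 and NDUFA4L2 were not analysed here, nor were 6 genes of the rule, NDUFS5 and ATP5F1E among them, whose probe sets are annotated to several symbols. The subunits encoded by mitochondrial DNA were not analysed here either.

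The samples came from MOLM-14, a cell line established from human acute myeloid leukemia that has features of monocytes. DZNep at 2 µM was given to 2 samples and the solvent DMSO to 2 samples, and the treatment lasted 24 h. The compound, 3-deazaneplanocin A, inhibits the enzyme that clears S-adenosylhomocysteine, and so slows methyltransferases. All 4 samples are of 1 line and are called biological replicates with no word on separate cultures. The p-values therefore describe the spread among these 4 samples, and that spread may be technical. Over all probe sets the median log2 intensity was 7.07 and 7.05 on the DZNep arrays, against 6.99 and 7.07 on the DMSO arrays. The SD of the log2 difference between the arrays of a group, over all genes, was 0.14 for DZNep and 0.20 for DMSO. Of 9 myeloid marker genes measured, 7 lay above the 75th percentile of all genes by mean level and none below the median, while 5 of 5 lymphoid and 4 of 5 erythroid or megakaryocytic markers lay below the median (probe affinities differ, so these ranks are rough). Of 8 fibroblast and epithelial markers, 5 lay below the median, and 1 of them was called, DCN, a dim marker that was higher with DZNep (limma log2 difference 0.36, adjusted p = 0.0445). No lymphoid, erythroid or megakaryocytic marker was called, where 10.3% of all genes were. Of the 9 myeloid markers 3 were called, with log2 differences of −0.94 in FLT3, 0.53 in LYZ and 0.47 in CSF1R (limma adjusted p of 0.000535 to 0.0128). The part of other cells in any result was not tested. In bulk RNA, fewer cells of a type and less RNA per cell cannot be told apart, and precision is limited by having 4 arrays.

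NDUFA2, NDUFA1, NDUFC1, UQCR10 and NDUFAF1 were higher in DZNep-treated than in DMSO-treated cells, and NDUFB5, NDUFAF7 and NDUFS1 were lower, at a limma adjusted p below 0.05 over all genes. That is 5 of 89 higher (5.62%, against 3.62% of all genes) and 3 of 89 lower (3.37%, against 6.68% of all genes). In either direction it is 8 of 89, or 8.99%, against a background of 10.3%, so the share of called genes was near that of the array as a whole. Each of the 8 calls ended in at least 1 fit with an array left out. Those fits leave 1 array in a group, and calls over all genes changed in number in them too. When 16 was subtracted from each intensity before log2, 1 of the 8 calls was kept (NDUFA2). That subtraction left 1.12% of the 89 called, against 6.93% of all genes. With an intensity trend in limma, 7 genes were called higher and 10 lower (19.1%, against 14.2% of all genes), so whether the share lay below or above that of all genes depended on the fit. The largest difference among the 89 was 0.51 on the log2 scale, a 1.42-fold change. Only 1 of the 89 differed by more than 0.5 in either direction (1.12%, against 6.13% of all genes), and 17 differed by more than 0.25 (19.1%, against 21.0% of all genes). The 95% interval of the difference lay inside a 2-fold change for all 89 genes and inside a 1.5-fold change for 81 of them (91.0%, against 87.0% of all genes).

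The median log2 difference, DZNep minus DMSO, was −0.04 over the 89 genes and 0.02 over all genes. The middle 50% of the 89 genes lay between −0.16 and 0.10, beside −0.10 and 0.12 for all genes. Both DZNep arrays lay above both DMSO arrays for 26 of the 89 genes (29.2%, against 25.9% of all genes) and below both for 32 (36.0%, against 23.9% of all genes). The arrays were thus apart in 58 of 89 genes (65.2%, against 49.7% of all genes), and in the other 31 they overlapped. At an unadjusted limma p below 0.05 there were 24 of the 89 genes, against 4076 of all 18377 genes (22.2%). Differences of single genes had standard errors between 0.09 and 0.14.

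**Figure D1:**
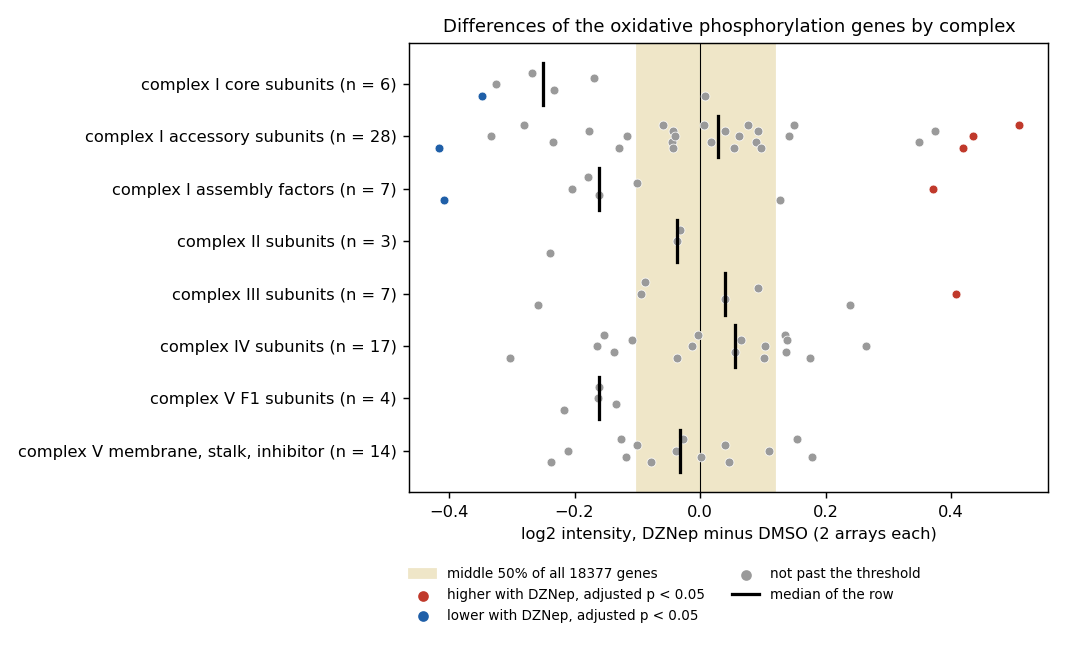
Log2 difference between DZNep and DMSO (x axis, 2 arrays each) for 86 oxidative phosphorylation genes by class, with 1 point per gene, a black bar at each class median and the middle 50% of all genes shaded. Class medians ran from −0.25 in the complex I core to 0.06 in complex IV, and coloured points mark the 8 genes past the threshold.

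Complex I held 5 of the 8 called genes among its 34 subunits (14.7% called, against 10.3% of all genes). Its 7 NDUFAF assembly factors held 2 more (28.6% called). The 6 measured core subunits had a median difference of −0.25, the lowest of the 8 classes. NDUFS1, the large iron-sulfur subunit of the arm that receives electrons from NADH, had log2 intensities of 10.23 and 10.26 on the DZNep arrays, against 10.57 and 10.62 on the DMSO arrays. Both DZNep values lay below both DMSO values. NDUFS1 was 1.27-fold lower (limma, log2 difference −0.35, SE 0.09, adjusted p = 0.0455), and this call ended when any 1 of the 4 arrays was left out (adjusted p of 0.0558 to 0.342, values of −0.32 to −0.37), and under quantile (0.0814) or cyclic loess (0.0691) normalization.

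The other core subunits did not pass the test. NDUFV2, NDUFS7, NDUFS3 and NDUFS8, further core subunits named here after their values were seen, had log2 differences of −0.32, −0.27, −0.23 and −0.17 (limma adjusted p of 0.103 to 0.367, with NDUFV2 passing at 0.0286 without DMSO replicate 2). With an intensity trend NDUFV2 (0.0394) and NDUFS3 (0.0437) passed too. That makes 3 of 6 core subunits lower in that fit, in which 9.09% of all genes were lower. In each of these 4 genes both DZNep arrays lay below both DMSO arrays, as in NDUFS1 and in 23.9% of all genes, while NDUFV1, the subunit that binds NADH and flavin, overlapped at 0.01 (limma adjusted p = 0.978, 95% interval −0.23 to 0.25). The median deviation of the 6 core genes from each gene's own mean was −0.11 and −0.14 on the DZNep arrays, against 0.13 and 0.11 on the DMSO arrays. A second probe set for NDUFV2 gave −0.33 beside the −0.32 of the one used, with nearly equal intensities, so it may not be an independent measurement.

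Accessory subunits of complex I moved in both directions, with a median of 0.03. Of 28, 3 were higher and 1 lower (14.3% called, against 10.3% of all genes). NDUFA2, a soluble accessory subunit of the NADH-oxidising module, had log2 intensities of 8.58 and 8.55 on the DZNep arrays, against 8.14 and 7.98 on the DMSO arrays. It averaged 8.57 ± 0.02 with DZNep and 8.06 ± 0.11 with DMSO (SD, n = 2 arrays each), 1.42-fold higher with DZNep (limma, log2 difference 0.51, SE 0.10, adjusted p = 0.0121). Its call ended only without DZNep replicate 1 among the arrays left out (limma adjusted p = 0.058).

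NDUFA1, a small membrane-bound accessory subunit encoded on the X chromosome, had log2 intensities of 9.32 and 9.50 on the DZNep arrays, against 9.03 and 8.93 on the DMSO arrays. It was 1.35-fold higher with DZNep (limma, log2 difference 0.43, SE 0.10, adjusted p = 0.0297), with groups that did not overlap. The call ended without DZNep replicate 2 (limma adjusted p = 0.326, value 0.34), without DMSO replicate 2 (0.0696) and under median centring (0.053).

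NDUFC1, another small membrane subunit, had log2 intensities of 9.45 and 9.37 on the DZNep arrays, against 8.89 and 9.08 on the DMSO arrays. The groups did not overlap, and the log2 difference was 0.42 (limma, SE 0.10, adjusted p = 0.0336). NDUFC1 kept its call without DMSO replicate 2 and lost it without any of the other 3 arrays (limma adjusted p of 0.0905 to 0.228, values of 0.32 to 0.46).

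NDUFB5, an accessory subunit of the membrane arm, had log2 intensities of 10.18 and 10.20 on the DZNep arrays, against 10.62 and 10.59 on the DMSO arrays. It was 1.33-fold lower with DZNep (limma, log2 difference −0.42, SE 0.09, adjusted p = 0.0214). Leaving out DZNep replicate 1 or 2 ended the call (limma adjusted p of 0.17 and 0.138) with values of −0.41 and −0.43. NDUFA3 at 0.35 and NDUFB2 at 0.37, and at the other end NDUFA6 at −0.33 and NDUFA7 at −0.28, lay next in size and did not pass (limma adjusted p of 0.0536 to 0.0974, named after their values were seen). NDUFA3 passed under quantile (0.0188) and cyclic loess (0.0273) normalization, and NDUFB2 without DZNep replicate 1 (limma adjusted p = 0.0377). NDUFA3 (0.0398) and NDUFA6 (0.0467) passed without the dimmest 25% of genes, and all 4 passed with an intensity trend (limma adjusted p of 0.0108 to 0.0385).

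**Figure D2:**
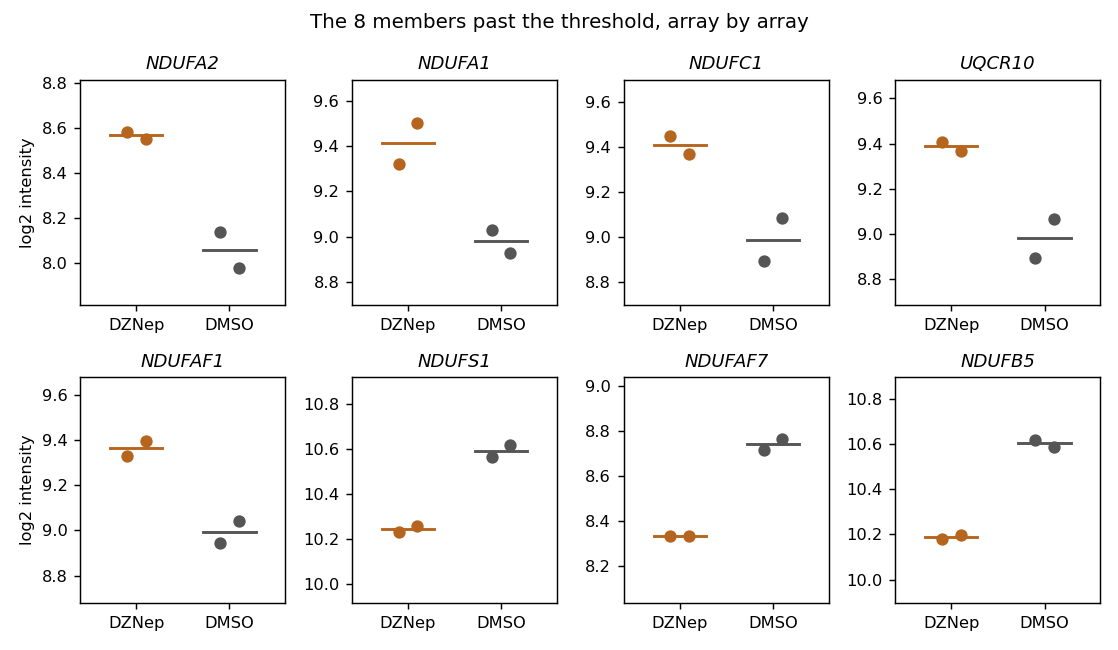
Log2 intensity (y axis, same span of 1 unit in each panel) of the 8 genes past the threshold on the DZNep and DMSO arrays, with 1 point per array and a line at the mean of the 2 arrays. DZNep points lie above DMSO points in NDUFA2, NDUFA1, NDUFC1, UQCR10 and NDUFAF1 and below them in NDUFS1, NDUFAF7 and NDUFB5.

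Of the 7 NDUFAF assembly factors, 1 was higher and 1 lower with DZNep (28.6% called, against 10.3% of all genes). NDUFAF1, which helps to build the membrane arm of complex I, had log2 intensities of 9.33 and 9.40 on the DZNep arrays, against 8.94 and 9.04 on the DMSO arrays. It was 1.29-fold higher with DZNep (limma, log2 difference 0.37, SE 0.10, adjusted p = 0.04), and the call ended without DZNep replicate 1 (0.172), DZNep replicate 2 (0.345) or DMSO replicate 1 (0.0892) and under median centring (0.0625).

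NDUFAF7, a mitochondrial arginine methyltransferase needed to assemble complex I, had a log2 intensity of 8.33 and 8.34 on the DZNep arrays, against 8.72 and 8.77 on the DMSO arrays. It was 1.33-fold lower with DZNep (limma, log2 difference −0.41, SE 0.09, adjusted p = 0.0238). With either DZNep array left out the call ended (limma adjusted p = 0.171 in both cases) at values of −0.41 both times. The other 5 NDUFAF genes ran from −0.20 in NDUFAF6 to 0.13 in NDUFAF5 and did not pass, and the class median was −0.16.

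**Figure D3:**
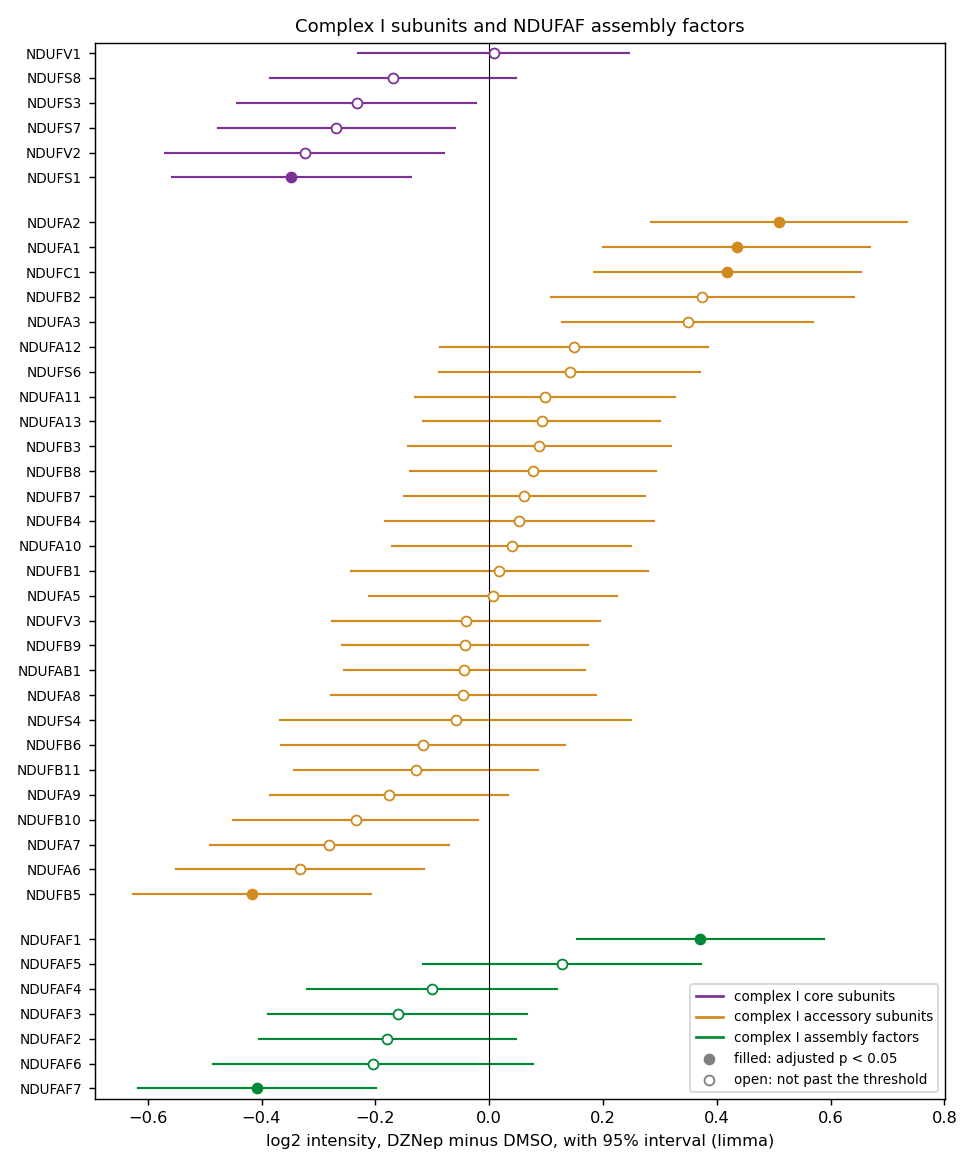
Log2 difference between DZNep and DMSO with its 95% interval (x axis) for 34 complex I subunits and 7 NDUFAF assembly factors, ordered within each class. Core subunits run from 0.01 to −0.35, accessory subunits from 0.51 to −0.42 and assembly factors from 0.37 to −0.41, and filled points mark an adjusted p below 0.05.

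The 3 promoters below are those of NDUFS1 (lower with DZNep), NDUFA1 (higher) and NDUFA2, the gene with the largest difference. NDUFS1 and NDUFA1 each hold an exact match to the motif of GABP, an activator of respiratory chain genes, and NDUFA2 holds no exact match. The 3 were chosen with these values known, and a link between motif and direction was not tested. Each sequence is the 250 bases before the gene's annotated start (RefSeq, GRCh38.p14), 5′ to 3′ on the strand of the gene, with the GABP match in capitals. NDUFS1 lies on the minus strand at chr2:206159445-206159694, NDUFA1 on the plus strand at chrX:119871582-119871831 and NDUFA2 on the minus strand at chr5:140647631-140647880.
NDUFS1: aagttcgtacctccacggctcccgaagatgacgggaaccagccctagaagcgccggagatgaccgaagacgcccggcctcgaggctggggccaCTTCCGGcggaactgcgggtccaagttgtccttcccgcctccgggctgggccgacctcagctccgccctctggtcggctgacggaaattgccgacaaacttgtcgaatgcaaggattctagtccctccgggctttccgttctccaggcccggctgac
NDUFA1: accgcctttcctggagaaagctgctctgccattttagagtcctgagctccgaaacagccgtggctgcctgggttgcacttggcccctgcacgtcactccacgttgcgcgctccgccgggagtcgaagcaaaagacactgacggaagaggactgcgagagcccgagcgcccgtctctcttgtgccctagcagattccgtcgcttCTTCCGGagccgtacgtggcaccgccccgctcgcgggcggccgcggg
NDUFA2: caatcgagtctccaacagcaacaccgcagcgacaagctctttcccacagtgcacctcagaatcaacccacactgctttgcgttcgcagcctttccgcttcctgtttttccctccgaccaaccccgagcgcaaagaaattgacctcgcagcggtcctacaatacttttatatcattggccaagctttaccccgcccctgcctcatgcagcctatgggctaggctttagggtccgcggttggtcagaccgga

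The motifs searched on both strands were CCGGAAG for GABP and, for NRF1, the other classical activator of these genes, GCGCA followed by any base and GCGC. A promoter window was found for 73 of the 86 subunit and assembly genes. The GABP motif was in 17 of the 73 windows (23.3%), against 11.8% of 15843 protein-coding genes and 8.82% of all 27305 genes with a window. The NRF1 motif was in 14 of the 73 (19.2%), against 7.65% of protein-coding genes and 5.53% of all genes with a window. SDHD and UQCR11 held both motifs. Genes with the GABP motif had a median log2 difference of −0.04 (n = 17, range −0.35 to 0.43), beside −0.02 for those without it (n = 56). Genes with the NRF1 motif had a median of 0.04 (n = 14, range −0.24 to 0.35), beside −0.04 for those without it (n = 59). A match describes these letters and not a bound site, and no test was made of these medians.

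Complex II, which feeds electrons from succinate into the chain, had no called gene among 3 measured (against 10.3% of all genes). SDHA, its flavin-bearing catalytic subunit, had log2 intensities of 10.65 and 10.73 on the DZNep arrays, against 10.90 and 10.95 on the DMSO arrays. The groups did not overlap, but the log2 difference of −0.24 did not pass (limma adjusted p = 0.167, 95% interval −0.45 to −0.03) except with an intensity trend (0.0294). The membrane anchors SDHC and SDHD had differences of −0.04 and −0.03 with overlapping arrays. Both values come from the brighter of 2 probe sets, which may read pseudogene copies. This was not tested. SDHC was the one gene whose probe sets differed in sign, with 0.17 from the probe set that was not used (limma over every probe set, adjusted p = 0.41).

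In complex III, 1 of 7 genes was higher and none lower (14.3% called, against 10.3% of all genes), with a median of 0.04. UQCR10, a small accessory subunit, had log2 intensities of 9.41 and 9.37 on the DZNep arrays, against 8.89 and 9.06 on the DMSO arrays. It was 1.33-fold higher with DZNep (limma, log2 difference 0.41, SE 0.10, adjusted p = 0.0329), a call that ended without DZNep replicate 1 (0.208), DZNep replicate 2 (0.135) or DMSO replicate 1 (0.0828). UQCRH, the hinge protein that docks cytochrome c, had the lowest value of the complex, at −0.26 (limma adjusted p = 0.215). Leaving out DMSO replicate 1 gave −0.14, and leaving out DMSO replicate 2 gave −0.37. CYC1, the cytochrome c1 subunit that the rule leaves out, had a difference of −0.13 (limma adjusted p = 0.499).

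No complex IV gene passed the test (0 of 17 by limma, against 10.3% of all genes), and the median was 0.06. At an unadjusted limma p below 0.05 there were 2 of the 17, against 22.2% of all genes. Without the dimmest 25% of genes, 14 were left, with a median of 0.03. COX7A2L, which promotes the joining of complexes III and IV into supercomplexes, had log2 intensities of 9.85 and 9.94 on the DZNep arrays, against 10.24 and 10.15 on the DMSO arrays. Its groups did not overlap, and its log2 difference of −0.30 missed the threshold (limma adjusted p = 0.0856) but passed with an intensity trend (0.0152). COX7A1, the isoform of heart and skeletal muscle, had the highest value, at 0.26 (limma adjusted p = 0.143), and its counterpart of most tissues, COX7A2, had 0.14 (adjusted p = 0.491). COX7A1 was dim, with mean log2 intensities of 6.7 with DZNep and 6.5 with DMSO, against 10.2 and 10.1 for COX7A2. The ubiquitous COX4I1 had 0.18 and COX4I2, the isoform of lung and of low oxygen, had 0.10. COX4I2 was also dim (means of 6.9 with DZNep and 6.8 with DMSO). Its value became −0.07 with DMSO replicate 1 left out and 0.28 with DMSO replicate 2 left out. COX6A1 had 0.10, with 0.11 from its other probe set, and what that other probe set measures was not tested. The muscle isoform COX6A2 had −0.04 with overlapping arrays.

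Complex V had no called gene among 18 by limma, against 10.3% of all genes. At an unadjusted limma p below 0.05 there were 3 of the 18, against 22.2% of all genes. All 4 measured F1 genes had a negative difference and groups that did not overlap (DZNep lay below in 23.9% of all genes), with a median of −0.16. ATP5F1C, the rotating central shaft subunit, had log2 intensities of 10.41 and 10.41 on the DZNep arrays, against 10.61 and 10.65 on the DMSO arrays, a difference of −0.22 (limma adjusted p = 0.207, 95% interval −0.43 to −0.01, and 0.0498 with an intensity trend). ATP5F1B, the catalytic beta subunit, had 12.47 and 12.47 on the DZNep arrays, against 12.63 and 12.63 on the DMSO arrays, a difference of −0.16 (limma adjusted p = 0.366). The differences were −0.16 in ATP5F1D and −0.13 in ATP5F1A, and the 95% intervals of the 4 genes lay between −0.43 and 0.09. ATP5F1B and ATP5F1D were named after their values were seen.

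The 14 genes of the membrane part, stalks and inhibitor of complex V had a median of −0.03 and ran from −0.24 in ATP5MC2 to 0.18 in ATP5MC3. These and ATP5MC1 encode the same mature ring subunit from separate genes, and ATP5MC1 lay between them at 0.05. ATP5MC2 had log2 intensities of 9.71 and 9.75 on the DZNep arrays, against 10.00 and 9.94 on the DMSO arrays (limma adjusted p = 0.164). ATP5MC3 had 7.67 and 7.55 on the DZNep arrays, against 7.43 and 7.43 on the DMSO arrays (limma adjusted p = 0.336). The arrays of the groups did not overlap in either gene, in opposite directions, and the difference between the genes was not tested. The pseudogenes ATP5F1EP2 and UQCRBP1 had differences of 0.21 and −0.14 (limma adjusted p of 0.236 and 0.458).

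Of the 89 genes, 8 had a further probe set of their own. Apart from SDHC the differences had the same sign in both probe sets of a gene. In NDUFB4 both probe sets gave 0.05 and nearly equal intensities, so they may not be independent measurements. The same holds for NDUFV2, at −0.32 and −0.33. Many genes of the pathway have processed pseudogene copies whose sequence can bind the same probes, and the part of such copies in any value was not tested. This applies to SDHC, SDHD and ATP5MK, where the brighter of 2 probe sets was used and its position in the genome was not checked here. By number, the probe sets used lie nearest those of members on other chromosomes: ATP5MC1 on 17, ATP5IF1 on 1 and COX7B on X. The further probe set of NDUFV2 lies by number beside that of COX6B2, on chromosome 19. That of NDUFAF2, a gene on chromosome 5, lies nearest that of COX7A2L, on chromosome 2. For COX6A1, on chromosome 12, it lies between those of NDUFA2, on chromosome 5, and COX7A2, on chromosome 6. What these probe sets measure was not tested.

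Among 97 other genes of the pathway, taken from lists that the rule leaves out, 3 were higher and 11 lower with DZNep (14.4% called, against 10.3% of all genes), and their median difference was −0.10. The largest of these differences exceeded any among the 89 genes. IDH2, the mitochondrial NADP-dependent isocitrate dehydrogenase, had log2 intensities of 8.92 and 9.04 on the DZNep arrays, against 9.97 and 10.08 on the DMSO arrays, and was 2.06-fold lower with DZNep (limma, log2 difference −1.05, SE 0.10, adjusted p = 0.000333). It was the only called gene of 16 (6.25%) in the citric acid cycle and pyruvate dehydrogenase list, whose median was −0.15. IDH2, GABPB1, UQCC2, LRPPRC, COX15 and CMC2 kept their calls with any 1 array left out.

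Regulators of respiratory chain genes and of mitochondrial DNA had a median of −0.11. Of 17, 4 were lower and none higher (23.5% called, against 10.3% of all genes). GABPB1, the subunit that gives GABP its activation domain, had log2 intensities of 7.95 and 8.02 on the DZNep arrays, against 8.82 and 8.75 on the DMSO arrays. It was 1.75-fold lower with DZNep (limma, log2 difference −0.80, SE 0.10, adjusted p = 0.00101), while GABPA, the DNA-binding subunit, had 0.03 (adjusted p = 0.905) and NRF1 had −0.11 (adjusted p = 0.593). LRPPRC, which stabilises mitochondrial messenger RNAs, was 1.59-fold lower (limma, log2 difference −0.67, adjusted p = 0.00266). The mitochondrial transcription factor TFAM was lower by a difference of −0.38 and the ribosomal RNA methyltransferase TFB1M by −0.44 (limma adjusted p of 0.0399 and 0.0217). The call of TFAM ended with either DZNep array or DMSO replicate 2 left out and that of TFB1M without DZNep replicate 2 or DMSO replicate 1 (limma adjusted p of 0.0592 to 0.314). TFAM also lost its call under quantile (0.0749) and cyclic loess (0.0646) normalization.

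**Figure D4:**
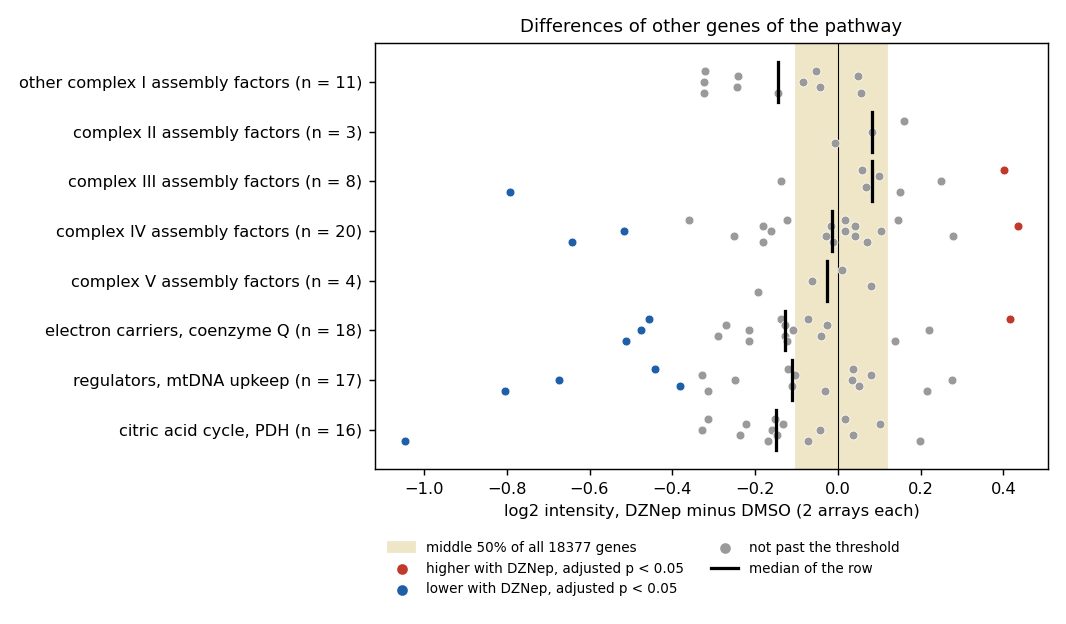
Log2 difference between DZNep and DMSO (x axis, 2 arrays each) for 97 other genes of the pathway by list, with 1 point per gene, a black bar at each list median and the middle 50% of all genes shaded. The lowest points are IDH2 at −1.05, GABPB1 at −0.80 and UQCC2 at −0.79, and 11 genes are marked lower and 3 higher.

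Among other assembly factors, 1 was higher and 1 lower of 8 for complex III (25% called, against 10.3% of all genes). For complex IV, 1 was higher and 2 lower of 20 (15% called). UQCC2, a complex III factor that binds newly made cytochrome b, had log2 intensities of 7.60 and 7.62 on the DZNep arrays, against 8.49 and 8.32 on the DMSO arrays, and was 1.73-fold lower (limma, log2 difference −0.79, SE 0.10, adjusted p = 0.00142). UQCC5, of the same list, was higher at 0.40 (limma adjusted p = 0.0447), a call that ended without DZNep replicate 2 (0.507, value 0.29) or either DMSO array and under median centring (0.0742). For complex IV, COX15, which makes heme A, was lower at −0.64 (limma adjusted p = 0.00326), CMC2 was lower at −0.52 (0.00883) and COA3, which acts on newly made COX1, was higher at 0.43 (0.0254), a call that ended with either DZNep array or DMSO replicate 2 left out (0.0536 to 0.179). None of the 11 other complex I factors passed by limma (against 10.3% of all genes), with 5 at an unadjusted p below 0.05 (against 22.2%). COA1 had the lowest value there, at −0.32 (limma adjusted p = 0.0633, and 0.0135 with an intensity trend or 0.048 without the dimmest 25% of genes). SDHAF2, which attaches flavin to SDHA, had 0.16, and ATPAF1, a chaperone of the F1 head, had −0.19 with overlapping arrays (−0.03 without DZNep replicate 1 and −0.36 without DZNep replicate 2).

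Electron carriers and coenzyme Q synthesis had a median of −0.13. Of 18 genes, 3 were lower and 1 higher (22.2% called, against 10.3% of all genes). PDSS1, a subunit of the enzyme that makes the coenzyme Q side chain, was lower at −0.51 (limma adjusted p = 0.0292). The methyltransferases COQ3 at −0.47 and COQ5 at −0.46 were also lower (limma adjusted p of 0.0263 and 0.0169), and COQ2, which joins ring and side chain, was higher at 0.42 (0.0322). Each of these 4 calls ended when some array was left out: PDSS1 without DZNep replicate 2 or either DMSO array, COQ3 without DZNep replicate 1 or DMSO replicate 1, COQ5 without DZNep replicate 1, and COQ2 with either DZNep array or DMSO replicate 1 left out (limma adjusted p of 0.0759 to 0.326). With 16 subtracted before log2, the calls of PDSS1, COQ3, COQ2, COA3, TFAM, TFB1M and UQCC5 ended. CYCS, cytochrome c itself, had 0.22 and did not pass (limma adjusted p = 0.286).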

How the data were processed

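The deposited values are linear intensities, 1 for each probe set on each array, and the submitters' processing notes name RMA as the authors' method. The lowest intensity per array was 18.1 to 18.5. Its version and settings were not stated. Of 28869 probe sets, 19310 carry 1 gene symbol in the platform annotation, 1752 carry several and 7807 are not listed there, and only the first were used. For each of 18377 genes the probe set with the highest mean log2 intensity was kept, with no pseudocount and no filter on dim probe sets.

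DZNep was compared with DMSO (2 arrays each) with lmFit and eBayes of limma 3.58.1 under R 4.3.3 (2 residual and 7.18 prior degrees of freedom), with Benjamini-Hochberg adjustment over all genes and a threshold of 0.05. An exact permutation test of 2 arrays against 2 cannot go below p = 0.333. The fit was run on simulated data, with known changes added to independent noise. Those data held no array or culture effects, so the run cannot speak to such effects here. Alternatives changed the normalization, the intensity floor, the filter, the variance trend, the choice of probe sets, the replicate block and the arrays kept.

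The genes named are those past the threshold, the highest and lowest of each class, the isoform sets of complexes IV and V, and up to 2 genes of each other list. Others are said to be named after their values were seen, which also holds for SDHC, CYC1, COQ5, COQ2, COA3, TFAM and TFB1M. GABPA, NRF1, CYCS, NDUFAF5, NDUFAF6, the pseudogenes and the called markers were also named outside these rules. The genes and lists were chosen with earlier results of these data known. Promoter windows are from RefSeq (GRCh38.p14).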

Additional observations from a re-analysis of the deposited data

How the results depend on the processing

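With 2 arrays a group, the spread of each gene rests largely on that of all genes, and where an array was left out, the remaining 1 took its spread from the other group. Of the 89 genes, 3 were called higher under median centring (3.37%, against 2.78% of all genes). With 16 subtracted before log2, 1 was higher and 0 lower, and of the other pathway genes 0 were higher and 7 lower (7.22%), against 2.42% higher and 4.52% lower of all genes. An intensity trend gave 10 lower among the 89 (11.2%) and 19 among the other pathway genes (19.6%), against 9.09% of all genes. Without the dimmest 25% of genes, 17 of 96 other pathway genes were lower (17.7%, against 10.2% of all genes). Leaving out 1 array gave 1 to 4 higher and 0 to 4 lower among the 89, and 0 to 1 higher and 8 to 12 lower among the other pathway genes. Calls over all genes changed in number in those fits too, so the counts with 1 array left out do not describe these genes alone. The fit with the replicate number as a block gave 6 higher and 2 lower among the 89 (8.99% called, against 11.5% of all genes). In that fit NDUFS1 was no longer called (limma adjusted p = 0.0685) and NDUFB2 was called (0.0424). The numbers mark no stated pairing, and same-numbered arrays deviated with a correlation of −0.22 over genes. A crossed block, chosen after seeing the data, gave 7 higher and 6 lower. No share over all genes was computed for it, so these counts have no background to be read against.

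The median difference of the 89 genes under median centring was −0.0696. It was −0.0083 after quantile normalization, −0.012 after cyclic loess and −0.047 to −0.017 with 1 array left out. The median of the complex I accessory subunits was −0.0036 under centring, 0.063 under quantile, 0.044 under loess and −0.034 to 0.059 with 1 array left out. That of complex III was 0.00702 under centring, 0.063 under quantile and 0.0087 to 0.067 with 1 array left out. That of complex II was 0.031 under quantile, 0.013 under loess and −0.094 to 0.011 with 1 array left out, and that of the F1 genes was −0.11 under loess.

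Signs across these alternatives were followed for most of the named genes and not for all 89. Among those followed, the sign turned in 5 uncalled genes. NDUFV1 was −0.025 under centring and −0.092 to 0.11 with 1 array left out. SDHD was 0.031 under quantile, 0.023 under loess and −0.074 to 0.011 with 1 array left out. SDHC was 0.039 under quantile, 0.013 under loess, 0.066 as the mean over its probe sets and −0.094 to 0.020 with 1 array left out. With 1 array left out, COX4I2 was −0.073 to 0.28 and COX6A2 was −0.23 to 0.15. The cause of these shifts was not tested.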
